A study of Mus musculus with 4 samples.

Results

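The 9 genes described here mark the neural lineage at successive steps, and they were chosen by name as a panel. They are the transcription factor genes Sox1, Pax6, Neurog2 and Sox11, the progenitor filament gene Nes, the adhesion molecule gene Ncam1, and the neuronal cytoskeleton genes Tubb3, Map2 and Dcx. All 9 were found among the 55401 genes of the table. RNA-seq was performed on E14 mouse embryonic stem cells (mESCs), a line derived from the inner cell mass of the blastocyst, with 2 WT libraries and 2 Haspin-KO libraries. Haspin is the kinase that phosphorylates histone H3 at threonine 3 (H3T3ph) in mitosis, and the study asked which genes change when it is lost. Cells of both genotypes grew in knockout-DMEM with fetal bovine serum, Lif and 2i (inhibitors of MEK and GSK3), which hold mESCs in the undifferentiated state, and no differentiation was induced. Haspin-KO lines came from WT E14 cells transfected with CRISPR/Cas9 and a pair of gRNAs against the Haspin coding sequence, and each was grown from a single H3T3ph-negative clone. Which line gave which Haspin-KO library is not stated, and the labels do not say that the libraries of a group came from separate cultures, so p-values measure the spread between these libraries only. Cells were passaged on mouse embryonic fibroblast feeders or kept on gelatin for assays.

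In the embryo, ectoderm turns to neuroectoderm when Sox1 and Pax6 come on, and the dividing neural progenitors carry nestin filaments. Proneural factors such as neurogenin 2 (Neurog2) then drive cells out of the cycle, Sox11 accompanies the step to immature neurons, and the neurons build processes with beta-III tubulin (Tubb3), MAP2 and doublecortin (Dcx). In undifferentiated mESCs most of this programme is off, held back in part by REST, Polycomb, Id and Hes repressors.

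Library totals ranged from 14207828 to 21834847 counts, and 15580 genes had enough counts to be tested in edgeR. At these depths 3 counts, taken as the smallest abundance a library can show, were worth 0.137 to 0.211 CPM (counts scaled to the library total). Haspin itself had 875 and 619 counts in the WT libraries and 149 and 209 in the Haspin-KO libraries, a log2 fold change of -1.60 (SE 0.159, adjusted p = 0.00154, Benjamini-Hochberg adjusted, edgeR quasi-likelihood test, n = 2 per group), in the direction of the labels.

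The starts of these genes differed in base composition, and 4 of them are printed here because their genes span the range of levels from the highest to none. RefSeq promoters (GRCm38.p6, 250 bases before the start and 50 after) matched 8 of the 9 genes, all but Ncam1. The bases upstream of the annotated transcript are shown 5′ to 3′ on the gene's own strand, with CpG dinucleotides in capitals.
Tubb3, chr8:123411303-123411423, plus strand: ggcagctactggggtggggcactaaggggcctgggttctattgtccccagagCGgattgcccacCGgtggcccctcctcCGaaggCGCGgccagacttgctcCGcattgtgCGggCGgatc
Nes, chr3:87970843-87971077, plus strand: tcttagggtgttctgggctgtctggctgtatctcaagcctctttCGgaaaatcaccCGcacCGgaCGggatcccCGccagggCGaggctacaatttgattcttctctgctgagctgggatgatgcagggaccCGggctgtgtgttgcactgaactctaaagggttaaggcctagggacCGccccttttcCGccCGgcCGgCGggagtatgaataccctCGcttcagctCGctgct
Map2, chr1:66175079-66175272, plus strand: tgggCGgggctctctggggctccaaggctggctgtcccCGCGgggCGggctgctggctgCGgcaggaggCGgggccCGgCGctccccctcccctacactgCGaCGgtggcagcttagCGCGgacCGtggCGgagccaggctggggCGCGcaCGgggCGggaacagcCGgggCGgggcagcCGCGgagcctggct
Dcx, chrX:143933312-143933469, minus strand: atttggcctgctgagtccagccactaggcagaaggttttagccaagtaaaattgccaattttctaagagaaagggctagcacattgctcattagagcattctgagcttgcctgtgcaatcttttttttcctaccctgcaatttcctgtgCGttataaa

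Over the whole 300-base window, the median of all 32851 promoters was 7 CpG. Map2 and Sox1 each had 37, more than 94.4% of all promoters, Tubb3 had 26, Sox11 had 21, Nes had 18, Neurog2 had 10, and the Dcx windows had 3. Pax6 had a pair of windows with 18 and 16. The order of levels was not the order of this count, since Map2, level with Sox1 for the most CpG, was among the lowest of the panel. Tubb3 was the highest in level. Dcx and Neurog2, with the fewest CpG of the matched genes, were also the lowest in level. A relation between CpG count and level was not tested. The GC box CCGCCC was found on either strand in the windows of 6 genes (Map2, Nes, Neurog2, Sox1, Sox11 and Tubb3) and in 35.7% of all promoters. The TATA box TATAAA was found for Dcx alone of the 8, as the last letters of the sequence printed above, and in 13.6% of all promoters. The letters TCAGCACC, the left part of the RE1 element that REST binds, were found in the Tubb3 window and in 1.65% of all promoters. These are matches of letters and not mapped binding sites.

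To compare genes with each other, counts were divided by exonic length and by the TMM-scaled library total (FPKM). Over the 4 libraries the order of mean levels was Tubb3 (37.6 FPKM), Nes (3.54), Ncam1 (2.56), Sox1 (2.25), Sox11 (0.727), Pax6 (0.171), Map2 (0.0856), Neurog2 (0.0338) and Dcx (no count). Every library of Tubb3 lay above every library of Nes, by 10.6 times in the mean. Nes and Ncam1 were separated by a small gap (lowest Nes library 3.05, highest Ncam1 library 2.89), whereas Ncam1 and Sox1 overlapped. Sox11 lay below Sox1 and above Pax6 in all libraries, and neighbours among Pax6, Map2 and Neurog2 overlapped. Set against the 28670 genes with a count, Tubb3 lay above 94.9%, Nes above 69.0%, Sox1 above 64.2%, Pax6 above 37.2% and Map2 above 28.3%. The panel therefore held 1 abundant transcript, 3 at a few FPKM and 5 below 1 FPKM on average.

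**Figure D1:**
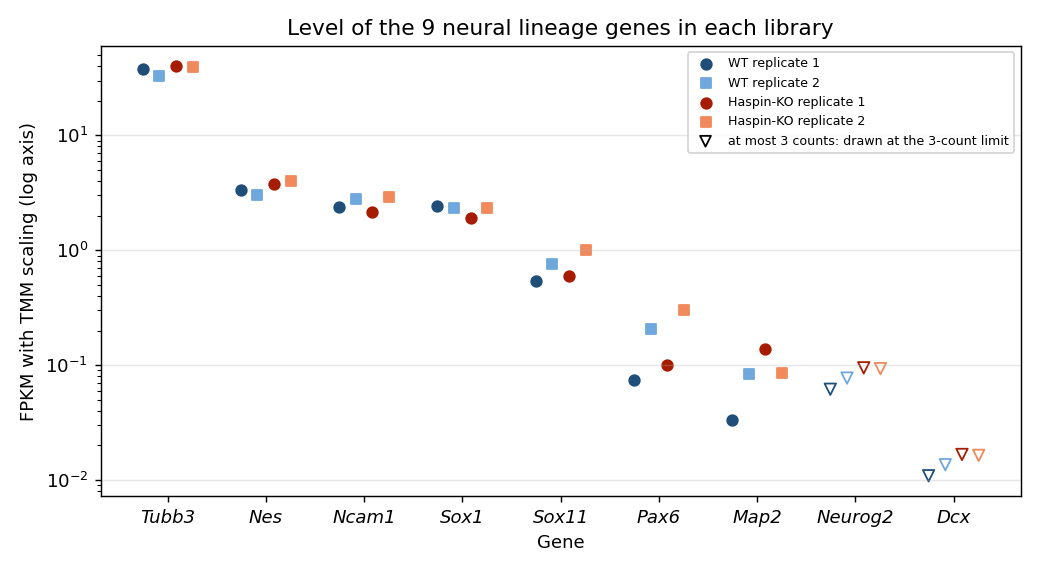
Level of each of the 9 genes (x axis) in each of the 4 libraries (y axis: FPKM with TMM scaling, log axis; 1 point per library, open triangles at the 3-count limit where a library had at most 3 counts). Levels ran from 33.0 to 39.8 FPKM for Tubb3 down to no count for Dcx. WT and Haspin-KO points lay close together except for Pax6, Sox11 and Map2, where libraries of the same genotype lay apart in both WT and Haspin-KO.

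In the comparison of Haspin-KO with WT mESCs, no gene of the panel passed the test. Of the 9 genes, 7 passed the filter on low counts (all but Neurog2 and Dcx) and 0 had an adjusted p under 0.05 in either direction, where 0.988% of all tested genes were called higher and 1.51% lower. By a stricter rule with a fold over 2 as well, 0.327% of all tested genes were higher and 0.501% lower, and again 0 of the 7. At an unadjusted p under 0.05 edgeR gave 1 of 7 (Nes), DESeq2 0 of 8, and limma on log2(FPKM + 0.1) 1 of 5. These tools gave 20.8%, 6.87% and 15.8% of all genes they tested, so a count of 1 does not stand out. The median log2 fold change of the 7 was 0.27, beside -0.0039 over all genes tested, with 5 above 0 and 2 below. Both Haspin-KO libraries lay above both WT libraries for 3 of the 7 (Tubb3, Nes and Map2) and below for 1 (Sox1), where 25.3% and 26.9% of all tested genes did so. In these bulk libraries a change in the number of cells that express a gene and a change in its RNA per cell cannot be told apart.

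**Figure D2:**
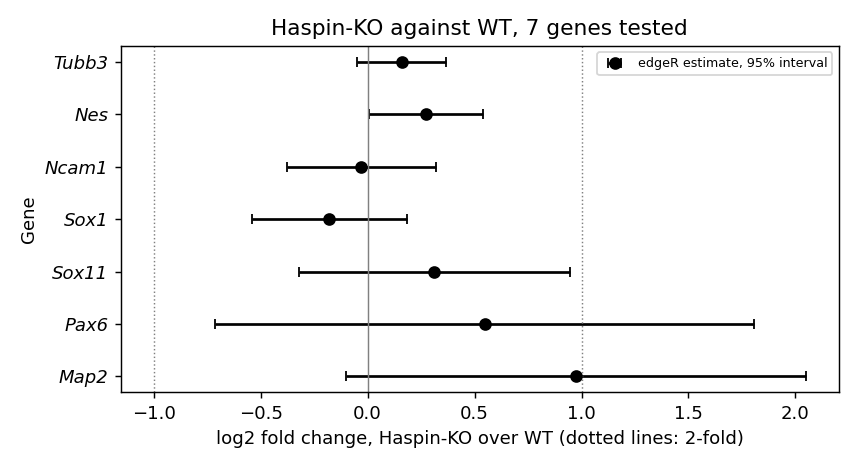
Log2 fold change of Haspin-KO over WT (x axis) for the 7 genes tested (y axis), with points for the edgeR estimate and bars for its 95% interval, 2 libraries per group, and dotted lines at 2-fold. The interval was narrowest for Tubb3 (-0.05 to 0.37) and widened to -0.71 to 1.81 for Pax6.

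Among the neuroectoderm transcription factor genes, Sox1 (chr8:12395295-12400126, a gene of 1 exon), the earliest marker of committed neuroectoderm, had 257 and 196 counts in WT and 132 and 160 in Haspin-KO cells. These were 11.8 and 11.3 CPM in WT and 9.19 and 11.2 CPM in Haspin-KO libraries, so the groups did not overlap, although Haspin-KO replicate 2 and WT replicate 2 were nearly level. The log2 fold change was -0.18 (SE 0.161, 95% interval -0.54 to 0.18, adjusted p = 0.564, Benjamini-Hochberg adjusted, edgeR quasi-likelihood test). The Sox1 gene shares 86 exonic bases with the small gene Gm25239, which had no count.

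Pax6 (chr2:105668900-105697364), the paired-box regulator of the neural tube and eye, had 19 and 42 counts in WT and 17 and 50 in Haspin-KO cells. In CPM, WT replicates 1 and 2 were at 0.870 and 2.42, and Haspin-KO replicates 1 and 2 were at 1.18 and 3.50. The libraries of a group differed by 2.79 times in WT and by 2.96 times in Haspin-KO, more than the group means did (1.42 times). In both groups it was the library numbered 2 that was higher. The log2 fold change of Pax6 was 0.55 (SE 0.561, 95% interval -0.71 to 1.81), which leaves room for a fold between 0.610 and 3.50.

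Sox11 (chr12:27334264-27342574, 1 exon), a SoxC factor of immature neurons, had 98 and 110 counts in WT and 71 and 120 in Haspin-KO cells. These were 4.49 and 6.35 CPM in WT and 4.94 and 8.41 CPM in Haspin-KO libraries, and the groups overlapped. As for Pax6, the second library was the higher one in each group, by 1.41 times in WT and 1.70 times in Haspin-KO. The log2 fold change was 0.31 (SE 0.282, 95% interval -0.32 to 0.94). Without Haspin-KO replicate 2 the Sox11 estimate fell to -0.125, and the Pax6 estimate to -0.435, so the direction of both rested on that library. The Pax6 estimate was also below 0, at -0.0534, without WT replicate 1.

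The proneural gene Neurog2 (chr3:127633135-127635631) had 2 and 0 counts in WT and 2 and 1 in Haspin-KO cells. All 4 libraries were under 3 counts, which correspond to 0.0617 to 0.0948 FPKM, and counting error allowed up to 7.22 counts behind a count of 2 (exact Poisson 95% interval). Neither the presence of the transcript in a small number of cells nor a difference between genotypes could be shown at this depth. No fold change is given.

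Nes (chr3:87971078-87980451), which encodes the intermediate filament of neural progenitors, had 470 and 339 counts in WT and 347 and 364 in Haspin-KO cells. Scaled to depth, WT libraries were at 21.5 and 19.6 CPM (mean 20.5 ± 1.39, SD, n = 2) and Haspin-KO libraries at 24.2 and 25.5 CPM (24.8 ± 0.943, SD, n = 2). Both Haspin-KO values were above both WT values. The log2 fold change of 0.27 (SE 0.118, 95% interval 0.0067 to 0.54) had an unadjusted p of 0.0455 and an adjusted p of 0.229 (Benjamini-Hochberg adjusted, edgeR quasi-likelihood test), so Nes was not called.

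Ncam1 (chr9:49502136-49798925, minus strand), the neural cell adhesion molecule of neurons and their precursors, had 453 and 418 counts in WT and 270 and 358 in Haspin-KO cells. The 2 WT libraries were at 20.7 and 24.1 CPM and the Haspin-KO libraries at 18.8 and 25.1 CPM. The Haspin-KO values lay on both sides of the WT values, and the log2 fold change was -0.03 (SE 0.156, 95% interval -0.38 to 0.32). Here too the library numbered 2 was the higher one in each group. The sign turned when a single library was left out, to 0.0823 without WT replicate 2 and 0.166 without Haspin-KO replicate 1. The gene shares 4.81% of its exonic bases with Gm11149 on the opposite strand, which had 0 to 2 counts per library.

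Tubb3 (chr8:123411424-123422015), which encodes the beta-tubulin isotype used as a pan-neuronal marker, had 1553 and 1067 counts in WT and 1068 and 1054 in Haspin-KO cells. At 71.1 and 61.6 CPM in WT (66.3 ± 6.75, SD, n = 2) and 74.4 and 73.8 CPM in Haspin-KO libraries (74.1 ± 0.382, SD, n = 2), the groups did not overlap, and the gap between them was smaller than the gap between the WT libraries. The log2 fold change was 0.16 (SE 0.0934, 95% interval -0.05 to 0.37, adjusted p = 0.365, Benjamini-Hochberg adjusted, edgeR quasi-likelihood test). This is the tightest interval of the panel, and it ends at a fold of 1.29.

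Map2 (chr1:66175273-66442583), the microtubule-associated protein gene of dendrites, had 12 and 24 counts in WT and 33 and 20 in Haspin-KO cells. These were 0.549 and 1.38 CPM in WT and 2.30 and 1.40 CPM in Haspin-KO libraries. Only a margin in the second decimal separated Haspin-KO replicate 2 from WT replicate 2. The log2 fold change of 0.97 was the largest of the panel, but its standard error was 0.478, the 95% interval ran from -0.10 to 2.05 and the adjusted p was 0.28 (Benjamini-Hochberg adjusted, edgeR quasi-likelihood test). Counting error alone allowed 6.20 to 21.0 counts behind the 12 of WT replicate 1 (exact Poisson 95% interval), and such Poisson intervals cover counting error only. Leaving out a library moved the Map2 estimate between 0.411 (without WT replicate 1) and 1.74 (without WT replicate 2).

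Dcx (chrX:143855842-143933311, minus strand), which encodes a microtubule protein of migrating neurons, had 0 counts in all 4 libraries. A count of 0 allowed up to 0.0109 to 0.0167 FPKM in a library, below the level of every other gene of the panel that had more than 3 counts. Summed over the 9 genes, WT libraries held 131.1 and 126.7 CPM and Haspin-KO libraries 135.1 and 149.0 CPM, with Tubb3 the largest share in each library.

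The study designed PCR primers for Nes, Sox1 and Pax6, shown here because they fix which part of each gene such an assay reads, beside the whole exonic length that RNA-seq counts.
Nestin-F: gggccagcactcttagctttgata
Nestin-R: tgagccttcagggctatccag
Sox1-F: ccaagatgcacaactcggag
Sox1-R: ctcttggcctcgtcgatgaa
Pax6-F: accagtgtctaccagccaatcc
Pax6-R: gcacgagtatgaggaggtctga
Matched to the GENCODE transcripts of GRCm38, Nestin-F lay in the UTR of Nes (chr3:87980092-87980115) and Nestin-R had no exact match, with 2 mismatches at best to a Nes transcript. Sox1-F (chr8:12396581-12396600) and Sox1-R (chr8:12396658-12396677) lay in the Sox1 coding sequence. The letters of Sox1-F were also found in Sox2 and Sox14, and those of Sox1-R in Sox1 alone. Sox2 stood at 174.1 FPKM over the 4 libraries beside 2.25 FPKM for Sox1. Of the 26 Pax6 transcripts, 13 held Pax6-F (chr2:105692581-105692602) and 11 held Pax6-R (chr2:105695320-105695341), so the assay and the gene count do not cover the same set of transcripts.

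Genes that work beside the panel were read from 4 lists. The neuroectoderm and progenitor regulators had 18 of 32 genes tested, with 0 called higher and 0 lower by edgeR and a median log2 fold change of 0.17. At an unadjusted p under 0.05 DESeq2 gave 1 of 31, beside 6.87% of all genes. The same threshold gave 2 of 13 with limma on log2(FPKM + 0.1), beside 15.8%. By edgeR it was 4 of 18, near its share of 20.8% over all genes. The 4 are named after their values were seen: the SoxB1 gene Sox3 (0.60) and the receptor gene Notch1 (0.30) were higher in Haspin-KO, and Otx2 (-0.65), a forebrain and primed-state factor, and Zfp521 (-0.996), a driver of neural conversion, were lower, none of them past the adjusted threshold. Abundant in the list were Sox2, shared with the pluripotency network, at 169.0 FPKM in WT and 179.2 FPKM in Haspin-KO cells, and the zinc-finger gene Zic2 (15.0 and 15.3 FPKM). The progenitor gene Fabp7 had no count in any library. The Notch target Hes5 had 3 and 5 counts in WT and 0 in both Haspin-KO libraries, near the 3-count limit. Dll1 of the same list went the other way, with 4 and 0 counts in WT and 11 and 5 in Haspin-KO libraries. Neither Hes5 nor Dll1 passed the filter on low counts.

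Of the 18 proneural and neuronal transcription factors, only 5 were tested, and 8 were at or under 3 counts in every library. By edgeR 0 were called, and 1 had an unadjusted p under 0.05, where 20.8% of all genes tested did. That gene was Neurod1, a bHLH factor downstream of the neurogenins, with 37 and 17 counts in WT and 93 and 44 in Haspin-KO cells. These were 1.69 and 0.981 CPM in WT and 6.48 and 3.08 CPM in Haspin-KO libraries, with no overlap, and the log2 fold change was 1.81 (SE 0.408, 95% interval 0.89 to 2.72, adjusted p = 0.053, Benjamini-Hochberg adjusted, edgeR quasi-likelihood test). Neurod1 was called by DESeq2, which had 1 call in this list, and by edgeR without the filter on low counts, and limma on log2(FPKM + 0.1) gave 0 calls. The neurogenin gene of the panel, Neurog2, stayed at the limit of detection. The SoxC genes Sox12 (-0.19) and Sox4 (0.20), at 7.23 and 3.83 FPKM over the 4 libraries, had small differences, as their relative Sox11 did within its wider interval.

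The neuronal cytoskeleton, adhesion and synapse genes had 23 of 30 tested, 0 called in either direction by edgeR, DESeq2 or limma on log2(FPKM + 0.1), and a median log2 fold change of 0.08. At an unadjusted p under 0.05 these tools gave 4 of 23, 3 of 29 and 1 of 17 genes they tested, beside 20.8%, 6.87% and 15.8% of all genes. Tubb3 was not alone in its level, since Tubb2b, another neuronal beta-tubulin gene, stood at 143.1 FPKM in WT and 122.2 FPKM in Haspin-KO cells, and Stmn2, a tubulin-binding growth cone gene, at 35.7 and 37.6 FPKM. Tubb2b and Tubb3 had estimates of opposite sign (-0.23 and 0.16). Nefl, the light neurofilament gene, had 1078 and 799 counts in WT and 872 and 869 in Haspin-KO cells, with a log2 fold change of 0.35 (SE 0.0871) and an adjusted p of 0.0698 (Benjamini-Hochberg adjusted, edgeR quasi-likelihood test). The synaptic gene Snap25 had no count in any library, like Dcx.

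**Figure D3:**
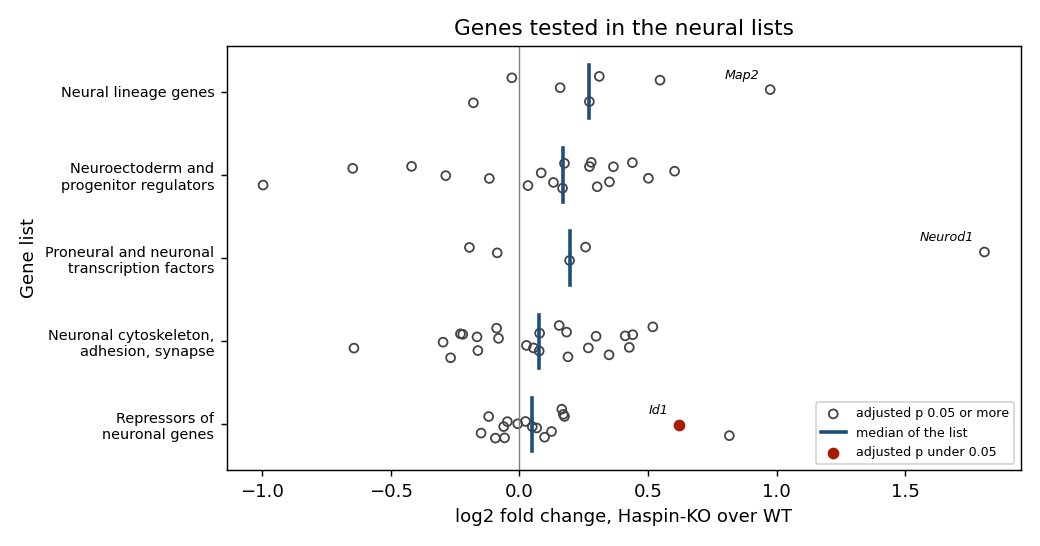
Log2 fold change of Haspin-KO over WT (x axis) of each gene tested in the panel and the 4 lists (y axis), with 1 point per gene, filled where the adjusted p was under 0.05, and a bar at the median of each list. Id1 is the 1 filled point, Neurod1 lies farthest to the right at 1.81, and the medians lie between 0.05 and 0.27.

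Repressors of neuronal genes were all measured, and 1 of 17 rose, where 0.988% of all tested genes were called higher. Id1, an inhibitor of the bHLH factors to which Neurog2 and Neurod1 belong, had 274 and 218 counts in WT and 292 and 261 in Haspin-KO cells, 12.5 and 12.6 CPM against 20.3 and 18.3 CPM. Its log2 fold change was 0.62 (SE 0.132, adjusted p = 0.0434, Benjamini-Hochberg adjusted, edgeR quasi-likelihood test), a fold below 2. The call was lost without either WT replicate 1, WT replicate 2 or Haspin-KO replicate 1, with library totals in place of TMM, and under DESeq2 and limma. The splicing repressor Ptbp1 (208.6 and 207.7 FPKM in WT and Haspin-KO cells) and the Polycomb genes Suz12 (55.3 and 60.3 FPKM) and Eed (52.5 and 59.1 FPKM) were the most abundant, and none of these was called. The median of the list was 0.05.

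Markers of other cell types were read beside the panel. The naive pluripotency markers had 12 of 12 genes tested, 0 called by edgeR (2 at an unadjusted p under 0.05) and a median log2 fold change of -0.09. Over all genes tested, edgeR gave 20.8% at an unadjusted p under 0.05, the share to set beside the counts below. Their most abundant genes Pou5f1 (467.4 and 424.9 FPKM in WT and Haspin-KO cells), Nanog (398.2 and 371.3) and Zfp42 (399.3 and 363.1) stood far above every gene of the panel, and all 12 markers of this list had counts in every library. The glial and neural crest list had 5 of 10 tested and 0 called (1 at an unadjusted p under 0.05), led by Foxd3, a neural crest factor also present in mESCs, at 17.6 and 20.8 FPKM, then Tfap2a (3.57 and 2.77). The mesoderm list had 5 of 8 tested and 0 called (1 at an unadjusted p under 0.05), led by Eomes (9.35 and 8.64 FPKM), T (3.07 and 1.74) and Gsc (2.05 and 1.62). The endoderm list had 5 of 8 tested, 0 called and 0 at an unadjusted p under 0.05, led by Dab2 (3.86 and 3.76 FPKM), Gata4 (1.12 and 0.804) and Cxcr4 (1.19 and 0.735). DESeq2 called 1 naive pluripotency gene, Klf4, and no gene of the last 3 lists. By edgeR the log2 fold change of Klf4 was -0.295 (adjusted p = 0.0604, Benjamini-Hochberg adjusted, edgeR quasi-likelihood test). No gene of these 4 lists was called by limma on log2(FPKM + 0.1). Over all genes, DESeq2 called 465 of the 12813 that had an adjusted p, and limma on log2(FPKM + 0.1) called 42 of 14817.

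The fibroblast markers behaved differently from all of these. Of 22, 15 were tested, 11 fell and 0 rose, 10 of them by more than 2-fold, where 0.501% of all tested genes fell by more than 2-fold. The median log2 fold change of this list was -4.56. The summed level of the 22 markers was 316.7 and 228.5 CPM in WT libraries and 57.3 and 46.4 CPM in Haspin-KO libraries. The collagen cross-linking enzyme gene Lox had 1215 and 657 counts in WT and 0 in both Haspin-KO libraries, Col1a1 had 1063 and 575 against 24 and 24, Fbln2 had 808 and 429 against 19 and 8, and Col5a2 had 781 and 427 against 62 and 53. Col5a1, with 842 and 522 against 448 and 362, was not called. In Haspin-KO libraries 7 of the 22 were at 0 (Lum, Dcn, Postn, Lox, Fap, Twist2 and S100a4), and Lum alone was at 0 in WT as well. Besides Lox, WT libraries had 171 and 77 counts for Postn and 22 and 9 for S100a4. Dcn (4 and 2 counts), Twist2 (1 and 3) and Fap (1 and 0) were near or under the 3-count limit in WT, so their 0 counts show no loss. The summed CPM of the panel was 1.10 times as high in Haspin-KO as in WT libraries, whereas that of the fibroblast markers was 5.26 times as high in WT, and the part of the fibroblast markers in the values of Nes, Ncam1, Tubb3 or Map2 was not tested.

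**Figure D4:**
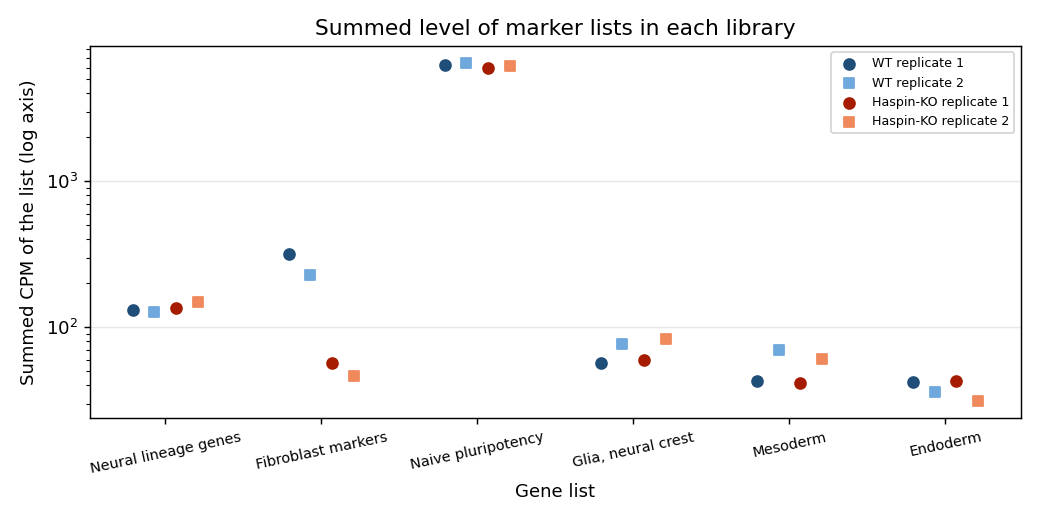
Summed CPM (y axis, log axis) of the panel and of 5 marker lists (x axis) in each of the 4 libraries, with 1 point per library and no error bars. Only the fibroblast markers separate the genotypes widely, at 228.5 and 316.7 CPM in WT against 46.4 and 57.3 CPM in Haspin-KO libraries.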

How the data were processed

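The mRNA-seq libraries of WT and Haspin-KO E14 cells (2 each) were grouped by their labels. According to the submitters' processing notes and the methods, reads were trimmed with Cutadapt (v1.9.1), mapped to mm10 with HISAT2 (v2.0.1) and processed with HTSeq (v0.6.1) and DESeq2. The annotation release, the strand setting and the handling of multimapping reads are not given in the sources used here. The authors deposited raw counts per gene, with no normalization. FPKM values deposited beside them equal counts over exonic length and library total in 100% of values within rounding.

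Haspin-KO was compared with WT by edgeR (4.0.16, R 4.3.3) with filterByExpr, TMM scaling and the quasi-likelihood test, tested on simulated data. P-values were adjusted by Benjamini-Hochberg over the 15580 genes tested. "Called" means an adjusted p under 0.05. CPM and the FPKM printed are TMM-scaled, except that the 3-count limits use the library totals as deposited. Alternatives were DESeq2 (1.42.0), limma (3.58.1) on log2(FPKM + 0.1) or log2(FPKM + 1) where 2 or more libraries reached 0.5 FPKM, other scalings, other filters, thinning to the smallest library, the replicate number as a block and each library left out. Poisson intervals and the 3-count limit cover counting error only, and the 95% intervals of log2 fold changes also hold the spread between libraries. In edgeR the spread used for a gene is not its own alone. It is drawn toward the trend over all genes tested (median prior degrees of freedom 7.42, beside 2 residual).

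The members and gene lists were chosen with earlier results of these data known. Named are all members, Haspin, the called genes and the 3 most abundant genes of each list, the 5 fibroblast markers highest in WT, and genes stated as named after their values were seen. Hes5, Dll1, Fabp7 and Snap25, and the fibroblast markers at 0, were also named after their values were seen. Some genes that this rule names are not reported here.

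Spans of all 9 members in the GENCODE M21 annotation of GRCm38 equal those of the deposited table. Promoters are from RefSeq (GRCm38.p6), cut at the start of the annotated transcript for printing, and motifs were searched on both strands. Primer sequences are the study's own.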

Additional observations from a re-analysis of the deposited data

How the results depend on the processing

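No member became a DEG (adjusted p under 0.05 and over 2-fold) under any alternative. Of the neural lists, 0 genes were DEGs in the main comparison and 1 without the filter, with DESeq2 or with the replicate block (Neurod1 each time), and 0 to 2 when a library was left out (Neurod1 and Id2 without Haspin-KO replicate 2). The other marker lists had 10 DEGs, all of them fibroblast markers, 4 with limma on log2(FPKM + 0.1) and 0 with limma on log2(FPKM + 1). With at least 10 counts in every library there were 3. That filter left 8 of the 15 fibroblast markers tested, since it drops genes near 0 in Haspin-KO such as Lox and Postn. Over all genes there were 129 DEGs, 265 without the filter, 42 and 0 with limma on log2(FPKM + 0.1) and log2(FPKM + 1), 407 with the replicate block and 60 to 266 with a library left out (60 without WT replicate 1 or 2, 209 without Haspin-KO replicate 1, 266 without Haspin-KO replicate 2). Signs turned for Ncam1 (0.0823 without WT replicate 2, 0.166 without Haspin-KO replicate 1, range -0.255 to 0.166), Sox11 (-0.125 without Haspin-KO replicate 2, range to 0.647) and Pax6 (-0.0534 without WT replicate 1, -0.435 without Haspin-KO replicate 2, range to 1.42). The cause was not tested.

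The labels number the libraries 1 and 2 in each group but tie the numbers to no shared culture or day. Across genes, the differences between the libraries of a group correlated between groups with r = 0.289 (genes are not independent replicates). With the replicate block, Map2 alone of the 7 panel genes tested passed the threshold (0.994, adjusted p = 0.0439, edgeR). Genes called in the neural lists went from 1 to 16 of 63 tested. Over all 15580 genes tested, calls went from 390 to 3514, so the rise was not particular to these lists. With limma on FPKM, Pax6 and Map2 were under the minimum level and have no value. Counts were the lowest of the panel for Dcx, Neurog2, Map2 and Pax6. For Pax6 the libraries of a group also differed by 2.79 times in WT and 2.96 times in Haspin-KO.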
